A study of Mus musculus with 12 samples.

Results

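Of the 375 miRNA assays on a rodent TaqMan low-density array (TLDA), 40 were designed for the rat and carry the prefix rno in the deposited tables. All 40 were taken as a set by that prefix and were examined in mouse RNA, beside the other 335 assays, which carry the mouse prefix mmu. The arrays were run on RNA of pulmonary endothelial cells from male C57BL/6N wild type mice aged 6 to 10 weeks, which were selected with beads against CD144 and then CD31 and cultured to confluence. 4 arrays came from unstimulated control cells, 4 from cells given TD (Tri-DAP, the NOD1 agonist) for 6 hours and 4 from cells given MDP, the NOD2 agonist, for 6 hours, each ligand at 10 μg/mL, and cells of all groups had been starved in low serum. Cells of 3 mice were pooled in each isolation, so an array does not stand for a single animal. The arrays are named here by group and by the number in their label.

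MiRNAs are short RNAs cut from a hairpin, and an arm of the hairpin (5p or 3p) is loaded into a silencing complex. They find messenger RNAs mainly through the seed near their 5′ end. A TaqMan assay copies one mature miRNA with a stem-loop primer that fits its 3′ end and then follows a probe through PCR. Mature miRNAs are often identical in rat and mouse, but some differ in bases or in the position of their ends, and some have been described in one of the species only. The readout is the cycle at which fluorescence crosses a threshold (Ct), so a lower Ct means more product, and a Ct of 40 marks a well that never crossed it and is called undetermined here. Ct values of different assays also depend on how well each assay primes, so levels of different assays were not compared as amounts.

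RefSeq lists a mouse miRNA gene of the same name for 35 of the 40 rat assays. For miR-196c, miR-333, miR-336, miR-347 and miR-349 no gene of that name was found there. The mouse mature sequences below (RefSeq, GRCm38.p6) are those that the results turn on, with the seed, bases 2 to 8, in capitals. They are mouse RNAs that carry the number of the rat assay, and the sequences of the rat assays themselves were not used here. The first is the mouse miR-343, which lies at chr7:19386688-19386707 on the plus strand, in a hairpin within the gene Ercc2. Those of miR-339-3p (chr5:139369673-139369695, minus strand), miR-345-3p (chr12:108837027-108837048, plus strand), miR-351 (chrX:53053315-53053338 for the 5p arm, minus strand) and miR-224 (chrX:72261085-72261105 for the 5p arm, minus strand) belong to miRNAs that were read by a rat and a mouse assay on the same array. Both arms are given for miR-351, miR-224 and miR-381, because the rat assay names give none. The hairpin of miR-224 lies within the gene Gabre, that of miR-351 within C430049B03Rik, and the 3p arm of miR-381 at chr12:109726870-109726891 on the plus strand. The exons and introns of these genes were not analysed here.
miR-343: uCUCCCUUcaugugcccaga
miR-339-3p: uGAGCGCCucggcgacagagccg
miR-345-3p: cCUGAACUaggggucuggagac
miR-351-5p: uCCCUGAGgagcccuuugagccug
miR-351-3p: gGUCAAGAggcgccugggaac
miR-224-5p: uAAGUCACuagugguuccguu
miR-224-3p: aAAUGGUGcccuagugacuaca
miR-381-5p: aGCGAGGUugcccuuuguauauu
miR-381-3p: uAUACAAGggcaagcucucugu

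The next 4 are shown because they come from close relatives that stand on the array as a rat and a mouse assay, or as a pair of rat assays. The mouse miR-190a-5p and miR-190b-5p have the same seed and share their first 15 of 22 bases, at chr9:67236700-67236721 (minus strand) and chr3:90070030-90070051 (plus strand). The mouse miR-17-3p and miR-20b-3p have the same seed and share their first 9 bases, at chr14:115043721-115043742 (plus strand) and chrX:52742122-52742143 (minus strand).
miR-190a-5p: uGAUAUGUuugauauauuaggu
miR-190b-5p: uGAUAUGUuugauauuggguug
miR-17-3p: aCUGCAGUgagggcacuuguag
miR-20b-3p: aCUGCAGUgugagcacuucuag

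The endothelial marker miR-126-3p was read on all 12 arrays at a mean Ct of 19.7 ± 0.62 (SD, n = 12), the sixth earliest mean of the mouse assays. All markers used here were mouse assays, and Ct values of different assays were not set against each other as amounts. The epithelial markers miR-200a, miR-200b, miR-200c, miR-141 and miR-429 were read with means between 29.7 and 32.5. The leukocyte markers miR-142-3p, miR-142-5p, miR-150 and miR-223 had means between 29.8 and 35.1, and miR-142-5p was read on only 2 arrays. The muscle markers that were read lay between 29.3 and 35.1, on 1 (miR-133b, at 29.3) to 8 arrays (miR-1). The mean Ct of U6, the small nuclear RNA used as reference, ran from 18.3 on TD array 14 to 21.6 on TD array 8.

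The rat assays were read in fewer wells and at later cycles than the mouse assays. A Ct under 40 was recorded in 192 of 480 rat wells (40%) and in 2720 of 4020 mouse wells (67.7%). 8 rat assays (20%) were read on all 12 arrays, 9 on 4 to 11 arrays, 13 (32.5%) on 1 to 3 arrays and 10 (25%) on none. Among the mouse assays 166 (49.6%) were read on all arrays, 49 (14.6%) on 1 to 3 and 45 (13.4%) on none. Silent and intermittent assays thus made up a larger share of the rat set, which is a description, since assays are not replicates.

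**Figure D1:**
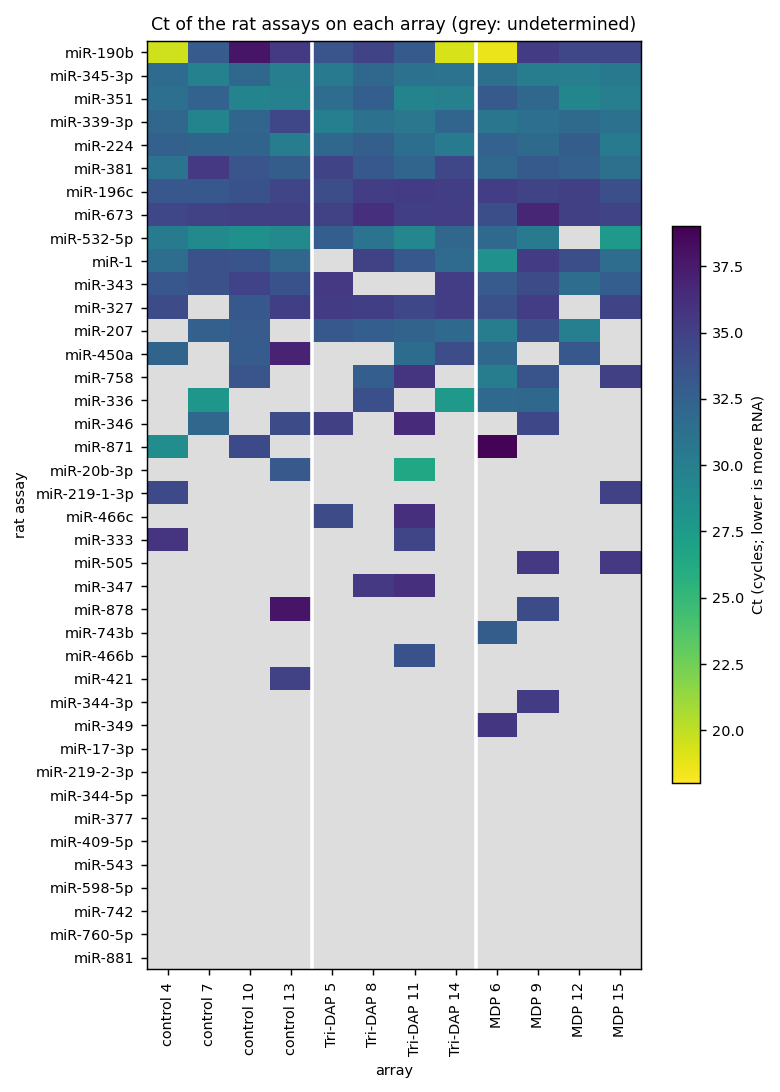
Ct of each of the 40 rat assays (rows, ordered by the number of arrays on which they were read and then by mean Ct) on each of the 12 arrays (columns, by group). Darker cells are later cycles, grey cells are undetermined wells, and the 3 brightest cells belong to miR-190b.

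On each of the 12 arrays the share of rat assays read lay below that of mouse assays, at 30% to 50% against 64.5% to 70.1%. The control arrays read 14, 16, 16 and 17 rat assays, the TD arrays 14, 15, 15 and 20, and the MDP arrays 12, 15, 19 and 19. The groups overlapped throughout. The mean number was 15.8 ± 1.26 (SD, n = 4) in the control, 16.0 ± 2.71 (SD, n = 4) after TD and 16.2 ± 3.40 (SD, n = 4) after MDP (two-sided exact permutation test against control, p = 1 for TD and p = 0.857 for MDP, and adjusted p = 1 for both). The smallest p this test can give is 0.0286 for TD and, because of tied counts, 0.0571 for MDP.

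**Figure D2:**
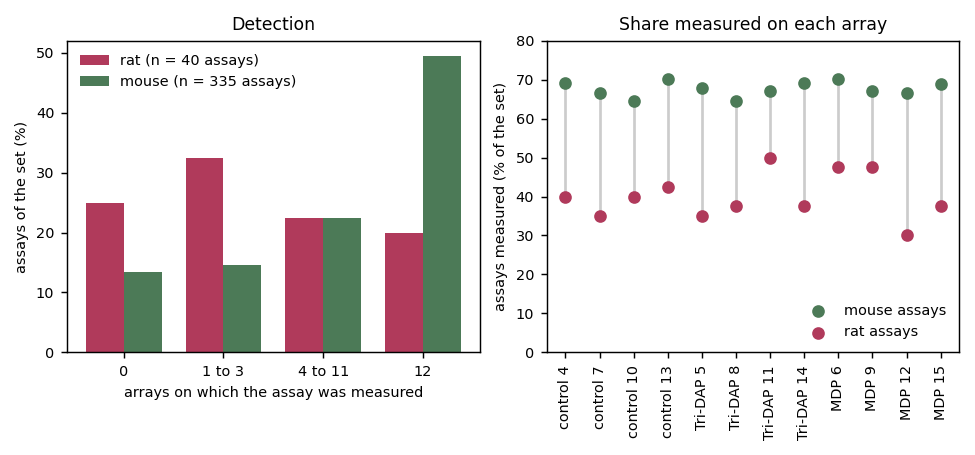
Left, percent of the 40 rat and 335 mouse assays (bars) by the number of arrays on which they were read. Right, percent of each set read on each array (points), where the rat share lies between 30% and 50% and the mouse share between 64.5% and 70.1%.

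Rat assays that were read crossed the threshold late. The median of the mean Ct was 33.7 over the 30 rat assays read at least once (quartiles 31.8 and 35) and 30.7 over 290 mouse assays (quartiles 27.9 and 33.1). Of the wells that were read, 65.6% of the rat wells and 27.6% of the mouse wells lay above Ct 32. Under Ct 25 there were 324 mouse wells (11.9%) but 3 rat wells (1.56%), all of miR-190b. Among assays read on all arrays in the same range of mean Ct, the median SD within groups was 1.04 cycles for 7 rat assays and 1.16 for 44 mouse assays. The range was 0.60 to 1.54 cycles for these 7 rat assays and 0.53 to 5.73 for the mouse assays. MiR-190b, also read on all arrays, was left out of the 7 because of its spread, with an SD within groups of 7.87 cycles at a mean Ct of 30.8. The mouse assays were not filtered by spread, so the 2 ranges do not compare the scatter of the full sets.

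Detection was also described by how the names of the rat assays match those of mouse assays on the card, and no test was run on it. Of the 16 rat assays that have a mouse assay of the same name, 5 were read on all arrays, 6 on some and 5 on none, which came to 52.6% of their wells. The 16 mouse assays of those names were read in 84 of 192 wells (43.8%), with 4 on all arrays and 5 on none. Where the names match, the rat assays were thus read in more wells than the mouse assays. Of the 14 rat assays that share the number but not the full name with a mouse assay, 2 were read on all arrays and 4 on none, and 25% of their wells were read. Names were matched in full. MiR-450a, miR-743b and miR-878, whose rat names give no arm, are therefore counted among these 14, since their mouse assays name one. The 10 without a mouse assay of their number were read in 40.8% of wells. The 5 assays for which RefSeq lists no mouse gene of the name were read in 22 of 60 wells (36.7%), against 170 of 420 (40.5%) for the other 35. Each of those 5 assays was read on at least 1 array.

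The 8 assays read on every array were miR-190b, miR-345-3p, miR-351, miR-339-3p, miR-224, miR-381, miR-196c and miR-673. Apart from miR-190b, which had 3 far earlier wells, their mean Ct was 30.8 ± 0.80 (SD, n = 12) for miR-345-3p, 30.9 ± 1.40 (SD, n = 12) for miR-351, 31.4 ± 1.28 (SD, n = 12) for miR-339-3p and 31.7 ± 0.95 (SD, n = 12) for miR-224. MiR-381, a member of the imprinted Dlk1-Dio3 cluster, had 33.0 ± 1.39 (SD, n = 12). MiR-673 of the same cluster stood at 35.1 ± 0.72 (SD, n = 12). MiR-196c lay at 34.4 ± 0.77 (SD, n = 12), between 33.2 and 35.3 on every array, although no mouse gene of that name is listed. The mouse assay of miR-196b, which belongs to the same Hox-linked family, was read on 9 arrays between Ct 32.8 and 36.9.

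MiR-190b was read at a Ct of 19.5, 33.0, 37.8 and 35.4 on control arrays 4, 7, 10 and 13. After TD it was read at 33.4, 34.7, 33.1 and 19.3 on arrays 5, 8, 11 and 14, and after MDP at 18.6, 35.3, 34.5 and 34.6 on arrays 6, 9, 12 and 15. One array of each group therefore stood far ahead of the other arrays. On those same arrays the mouse assay of miR-190 was undetermined (control 4), at 33.7 (MDP 6) and at 39 (TD 14), and on the other arrays on which it was read it lay between 34.7 and 35.5. A well more than 10 cycles ahead of the median of its assay occurred in 1 of 18 rat assays and 3 of 255 mouse assays read on at least 3 arrays. The mouse assays were miR-337-5p (control 4, control 10 and MDP 6), miR-708 (control 7, MDP 9 and TD 8) and miR-680 (TD 11), and whether these wells share a cause with those of miR-190b was not tested.

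10 rat assays were read on no array, namely miR-17-3p, miR-344-5p, miR-377, miR-543, miR-598-5p, miR-742, miR-760-5p, miR-881, miR-219-2-3p and miR-409-5p. 13 were read on 1 to 3 arrays, namely miR-20b-3p, miR-333, miR-344-3p, miR-347, miR-349, miR-421, miR-466b, miR-466c, miR-743b, miR-871, miR-878, miR-219-1-3p and miR-505. Read on 4 to 11 arrays were miR-1 and miR-532-5p (11 each), miR-327 and miR-343 (10 each), miR-207 (9), miR-450a (7), miR-758 (6), miR-336 (5) and miR-346 (5). MiR-17-3p comes from the hairpin of miR-17, whose mouse assay for the main arm was read on all arrays at 23.9 ± 1.01 (SD, n = 12), whereas the rat assay for the other arm was undetermined throughout. MiR-20b-3p, which shares the seed of miR-17-3p, was read on control array 13 at Ct 33.1 and on TD array 11 at 26.4, beside a mouse miR-20b assay at 29.0 ± 1.04 (SD, n = 12).

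Rat assays of genomic clusters were described by 3 lists. The Dlk1-Dio3 cluster of imprinted miRNAs on mouse chromosome 12 had 6 rat assays. Of these, miR-381 and miR-673 were read on all arrays, miR-758 on 6, and miR-377, miR-543 and miR-409-5p on none, which gave 30 of 72 wells (41.7%). The 43 mouse assays of the cluster were read in 59.1% of wells. The X-linked cluster next to Fmr1, whose miRNAs are known from testis, had 5 rat assays (miR-742, miR-743b, miR-871, miR-878 and miR-881), read in 6 of 60 wells (10%). 10 mouse assays of that cluster were read in 22 of 120 wells (18.3%), so that it was scarcely read by assays of either species. MiR-466b and miR-466c, from the miRNA group in an intron of Sfmbt2, were read in 3 of 24 wells (12.5%). These single late wells were miR-466b on TD array 11 (Ct 33.7) and miR-466c on TD arrays 5 (34.2) and 11 (36.1). TD array 11 read 20 rat assays, the most of the 12 arrays. The mouse assays of the same group were read in 76 of 108 wells (70.4%).

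16 pairs of a rat and a mouse assay carry the same name on the card, which gives 192 wells a side. In 68 of these both assays were read, in 33 only the rat assay, in 16 only the mouse assay, and in 75 neither. MiR-381 was read by the rat assay on 12 arrays, between Ct 31.0 and 35.5, and by the mouse assay on 3, between 35 and 36.5. MiR-207 was read by the rat assay on 9 arrays and by the mouse assay on 2, one of them at a Ct of 9.9 on MDP array 6, where the rat assay stood at 30.1. MiR-346 (5 arrays), miR-871 (3) and miR-505 (2) were read by the rat assay alone.

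The reverse also occurred. MiR-543, of the Dlk1-Dio3 cluster, was read by the mouse assay on 7 arrays, at 33.4 ± 1.47 (SD, n = 7), and never by the rat assay. MiR-409-5p was read by the mouse assay on 5 arrays, at 34.7 ± 0.41 (SD, n = 5), and never by the rat assay. MiR-881 had 2 mouse readings, among them one at Ct 7.1 on control array 13, and no rat reading. MiR-377 and miR-742 were undetermined with both assays on all arrays.

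Both assays of the same full name were read together on at least 6 arrays for 6 miRNAs, and their Ct was compared within the array. MiR-450a also met that limit but was left out, because its mouse assay names an arm (miR-450a-5p) and its rat assay does not. Its rat and mouse assays were at 36.9 and 31.7 on control array 13 and at 33.2 and 39.7 on MDP array 12. MiR-339-3p was read later by the rat assay on 12 of 12 arrays, at 31.4 against 29.1, a difference of 2.34 ± 1.62 cycles (SD, n = 12; two-sided exact permutation test by sign flips, p = 0.00049, adjusted p = 0.0015 over the 6 pairs). MiR-532-5p was read later by the rat assay on 11 of 11 arrays, by 2.39 ± 1.61 cycles (SD, n = 11; exact p = 0.00098, adjusted p = 0.0020). MiR-224 was read later on 12 of 12 arrays, by 0.84 ± 0.43 cycles (SD, n = 12; exact p = 0.00049, adjusted p = 0.0015). A delay of the rat assay was thus seen on every array for these 3 miRNAs, and for all 3 the p is the smallest the test can give. The test takes the arrays as independent. With the mean of each set of 3 arrays of consecutive label numbers (4 to 6, 7 to 9, 10 to 12 and 13 to 15) as 1 value, the delay was seen in 4 of 4 sets for each of the 3, and the smallest p that 4 values allow is 0.125.

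MiR-345-3p went the other way. The rat assay was read earlier than the mouse assay on 8 of 9 arrays, at 30.7 against 33.2, a difference of -2.58 ± 2.21 cycles (SD, n = 9; exact p = 0.0078, adjusted p = 0.0117). The rat assay was also read on all 12 arrays, in a range from 29.8 to 32, and the mouse assay on 9, in a range from 30.4 to 36.8. With each set of consecutive label numbers as 1 value, the mean difference of miR-345-3p was -3.24 cycles. The rat assay was later in 0 of 4 sets (exact permutation p = 0.125 by sign flips, the smallest that 4 values allow). For miR-351 the difference was 0.47 ± 1.19 cycles (SD, n = 12; exact p = 0.196, adjusted p = 0.236), and single arrays ran from -1.50 to 2.36. For miR-1, an miRNA of heart and skeletal muscle, it was 0.82 ± 2.23 cycles (SD, n = 7; exact p = 0.375, adjusted p = 0.375), from -1.82 to 4.30. For these last 2 no delay larger than the spread between arrays was found.

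**Figure D3:**
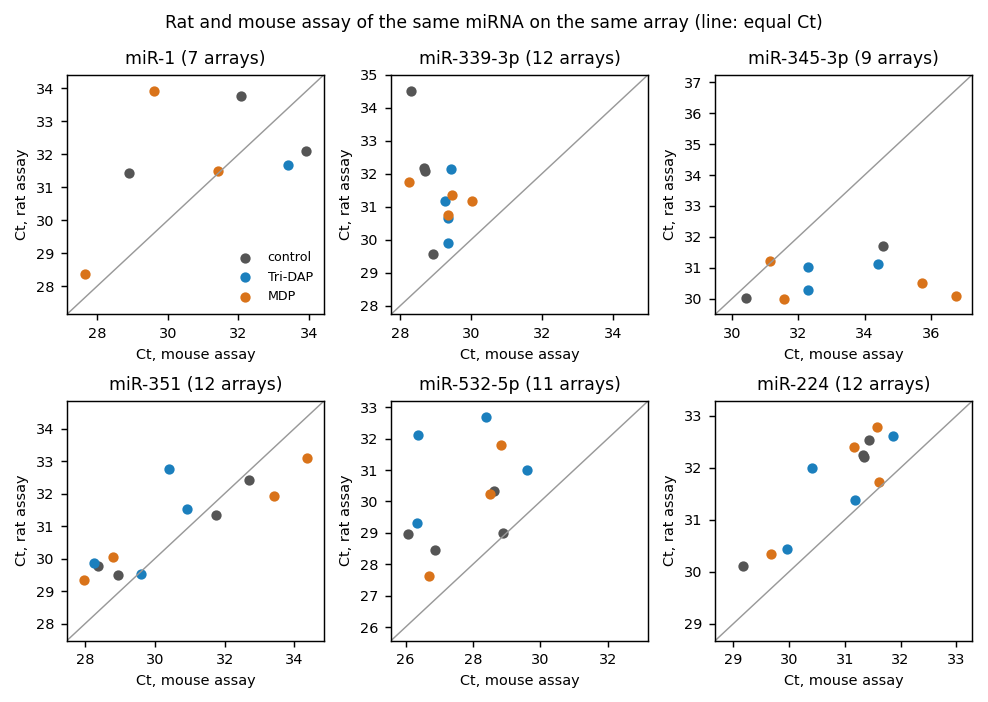
Ct of the rat assay (vertical) against Ct of the mouse assay (horizontal) on each array where both were read, for the 6 miRNAs compared; points are arrays coloured by group and the line marks equal Ct. MiR-339-3p, miR-532-5p and miR-224 lie above the line, miR-345-3p below it on 8 of 9 arrays, and the points of miR-351 and miR-224 rise together.

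Whether both assays of a miRNA rank the arrays alike was examined by correlation over arrays, with Ct taken relative to the mean of the 174 miRNAs read on all arrays. For miR-351, Pearson's r was 0.85 and Spearman's rho 0.75 (n = 12; permutation p = 0.0007 and 0.0073, adjusted p = 0.0051 and 0.0219 over 12 coefficients). Without the 2 arrays farthest from the median of the mouse assay r was 0.77. For miR-224, r was 0.83 and rho 0.82 (n = 12; permutation p = 0.0008 and 0.0020, adjusted p = 0.0051 and 0.0081), and r was 0.70 without the 2 farthest arrays. Taken as deviations from the group means, r was 0.86 for miR-351 and 0.84 for miR-224, so the relation was also present within groups. These p-values hold only if the 12 arrays are independent, and arrays of different groups may share a cell isolation. Taken as deviations from the mean of the 3 arrays with consecutive label numbers, r fell to 0.60 for miR-351 and to 0.55 for miR-224 (n = 12; exact permutation within the sets, p = 0.208 and 0.052, adjusted p = 0.31 and 0.16 over the 6 pairs), so the relation was no longer past the limit. The rat assay of miR-224 was read earliest on control array 13, TD array 14 and MDP array 15, at 30.1, 30.4 and 30.3, and its mouse assay was at 29.2, 30 and 29.7 there.

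The other 4 pairs gave no such relation. Pearson's r was 0.49 for miR-1 (n = 7), 0.05 for miR-339-3p (n = 12), -0.04 for miR-345-3p (n = 9) and 0.27 for miR-532-5p (n = 11), and rho was 0.54, 0.18, 0.03 and 0.32. The adjusted p of the permutation tests was 0.53 or more for all 8 coefficients. The mouse assay ran from Ct 28 to 34.4 for miR-351, from 29.2 to 31.9 for miR-224, from 28.2 to 30 for miR-339-3p and from 30.4 to 36.8 for miR-345-3p. Whether the range of the mouse assay bears on the relation was not tested. For miR-1, miR-339-3p and miR-345-3p the sign of r changed without the 2 farthest arrays, to -0.66, -0.10 and 0.66, so the signs of these coefficients rested on few arrays.

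The change of the rat minus mouse difference with stimulation was tested for the same 6 pairs. The 12 exact permutation tests, of TD and of MDP against control, all had an adjusted p of 0.75. The largest changes with at least 3 arrays in each group were 2.03 cycles for miR-532-5p after TD (3.60 ± 1.86 against 1.57 ± 1.14, SD, n = 4 each, exact p = 0.171) and a fall by 1.81 cycles for miR-339-3p after TD (1.61 ± 0.92 against 3.43 ± 2.27, SD, n = 4 each, exact p = 0.2). No change of the difference larger than the spread between arrays was found, and with 4 arrays a group this does not show that both assays respond alike.

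For the comparison of groups, Ct minus U6 was taken with the sign turned, so that it is log2 expression relative to U6. An assay was tested where at least 2 arrays of both groups were read. 15 of the 40 rat assays could be tested after TD, 14 after MDP, both against control, and 16 between MDP and TD. By limma, with an unadjusted p under 0.05 as the limit, 1 rat assay was called after TD, with 1.69% of the 237 miRNA assays called in all. None of the 14 was called after MDP, by limma or by the 2-tailed test of means that the methods name for other data of the study, where 1.23% of 244 were called by limma, and 1 of 16 was called for MDP against TD, where 2.90% of 241 were. The called assay was miR-343 both times, and after Benjamini-Hochberg adjustment in limma 0 assays passed, rat or mouse, which is 0% of those tested in each comparison, and the smallest adjusted p was 0.998, 1 and 0.501.

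The median log2 difference of the rat assays was -0.57 after TD, 0.44 after MDP and 0.84 between MDP and TD, beside -0.24, -0.02 and 0.18 over all miRNA assays tested. 10 of 15 rat assays were lower after TD, 5 of 14 were lower after MDP and 5 of 16 were lower after MDP than after TD. Over all assays these shares were 75.1%, 54.1% and 25.3%. The median SE was 1.04, 1.0 and 1.07 for the rat assays tested and 0.81, 0.82 and 0.81 over all assays tested. Some of these rat assays had only 2 readings in a group. Among assays read on all arrays in the same range of mean Ct, the rat assays did not spread more. Their median SD of Ct within groups was 1.04 cycles, with miR-190b left out, against 1.16 for the mouse assays. The comparisons of groups share arrays, and the medians of differences and SE describe the assays that passed the filter.

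**Figure D4:**
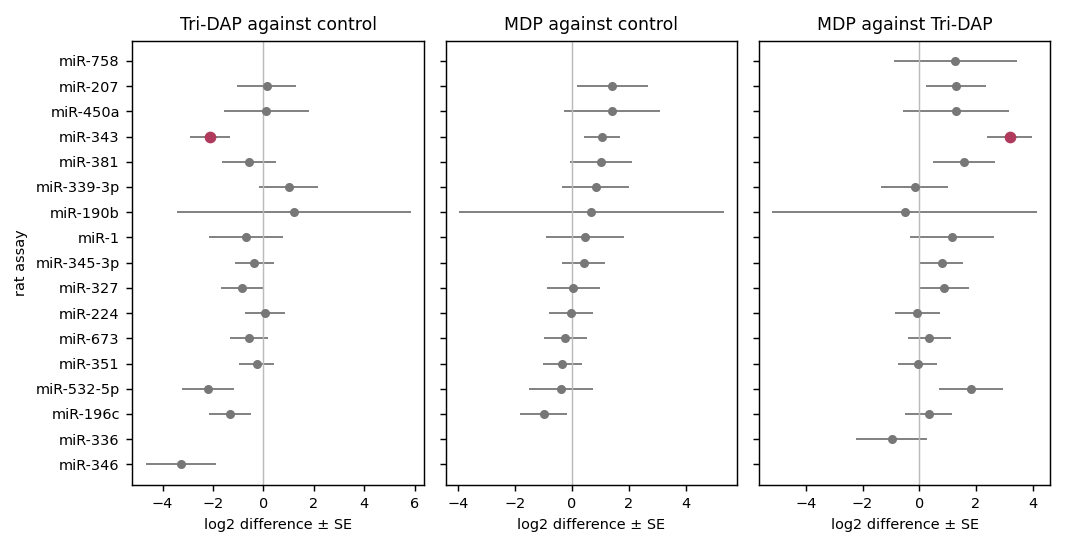
Log2 difference (horizontal, relative to U6) with its limma standard error for each rat assay tested, in 3 panels, where both stimulations are set against control and MDP is set against TD. The coloured point is miR-343, the called assay, and the bar of miR-190b is the widest because of its early wells.

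MiR-343 is a miRNA without a mouse assay on the card. It was read at a Ct of 33.3, 33.8, 34.7 and 33.7 on control arrays 4, 7, 10 and 13 and at 33.0, 34.2, 31.5 and 32.7 on MDP arrays 6, 9, 12 and 15. After TD it was read at 35.5 on array 5 and at 35.2 on array 14, and it was undetermined on arrays 8 and 11. The TD arrays were thus the 4 with the latest or missing readings, and they did not overlap with either of the other groups.

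On the log2 scale relative to U6 the mean was -14.24 ± 0.90 (SD, n = 4) in the control, -16.36 ± 0.77 (SD, n = 2) after TD and -13.18 ± 0.66 (SD, n = 4) after MDP. The undetermined wells would lie below -18.40 on TD array 8 and below -21.44 on TD array 11, at the U6 level of those arrays. The mean after TD differed from control by -2.12 (SE 0.79, limma p = 0.021, adjusted p = 0.998, exact permutation p = 0.067), with the missing wells left out. After MDP the difference was 1.06 (SE 0.64, limma p = 0.127, adjusted p = 1, exact permutation p = 0.086) and the groups overlapped. Between MDP and TD it was 3.18 (SE 0.79, limma p = 0.0021, adjusted p = 0.501, exact permutation p = 0.067).

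For 2 readings against 4 the smallest p of the exact permutation test is 0.067, which both comparisons with TD gave. With undetermined wells kept at 40 the difference for TD against control was -3.90. No call was possible with wells above Ct 35 left out, since both TD readings lie above it. The call after TD was lost without normalization (-1.46), with control array 4 left out (-1.86) and with a trend and robust variance (-2.12). In these last 2 settings the 1 rat assay called was miR-532-5p instead, and without normalization it was miR-196c (-1.20). With TD array 5 or 14 left out it could not be tested, because 1 reading remained. Since miR-343 was already known from an earlier look at these arrays, its values are not independent evidence.

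**Figure D5:**
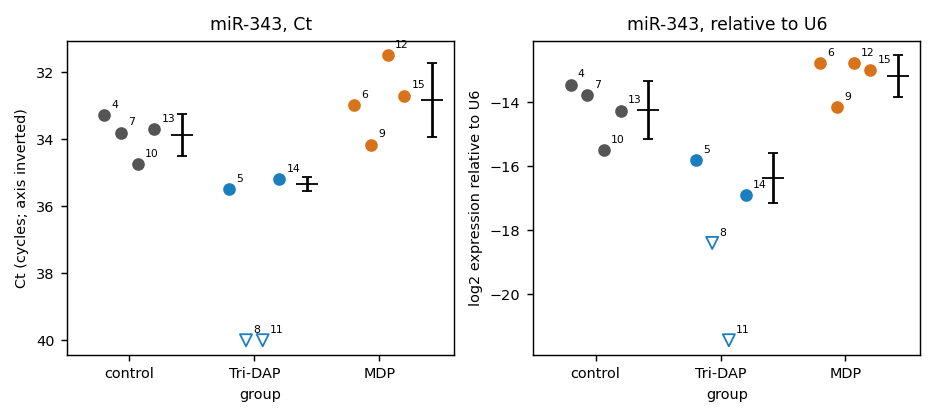
MiR-343 on each array (points, labelled with the number of the array), as Ct on the left (inverted axis) and as log2 expression relative to U6 on the right, with the mean and SD of the wells that were read. Open triangles are the undetermined wells of TD arrays 8 and 11, drawn at Ct 40 and at the upper limit that Ct 40 gives.

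Over the 10 arrays on which miR-343 was read, the assays most like it in log2 expression relative to U6 were mmu-miR-425 (Pearson's r = 0.83), mmu-miR-423-5p (0.81) and mmu-miR-667 (0.76). They were the highest of 176 assays read on all those arrays, over which the median r was 0.40, and all of them share the U6 value of the array, which moves them together.

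Among the rat assays that were not called, miR-346 had the largest difference after TD, -3.28 (SE 1.39, limma p = 0.057, adjusted p = 0.998, exact permutation p = 0.333, the smallest that 2 readings against 2 allow). The estimate was -1.44 with wells kept at 40, and with U6 and snoRNA202 as reference it was called (-3.05). It was read on control arrays 7 and 13 at Ct 32.1 and 34.1, on TD arrays 5 and 11 at 35 and 36.5 and on MDP array 9 at 34.4, while its mouse assay was undetermined on all arrays. MiR-532-5p was read at 30.3, 29.0, 28.4 and 29.0 on control arrays 4, 7, 10 and 13 and at 32.7, 31.0, 29.3 and 32.1 on TD arrays 5, 8, 11 and 14, a log2 difference of -2.21 (SE 1.04, limma p = 0.055, adjusted p = 0.998, exact permutation p = 0.086). Relative to U6 the control and TD arrays overlapped. Its unadjusted limma p passed the limit with only both groups in the fit, with a trend and robust variance, without control array 4, MDP array 6, MDP array 15, TD array 8 (-3.0) or TD array 11 (-2.54), and with sets of consecutive label numbers as a block (-2.21), so its call depended on the setting. The mouse assay of miR-532-5p gave -0.18 (SE 0.64, adjusted p = 0.998 by limma) in the same comparison.

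For other miRNAs with assays of both species, the estimates after TD were -0.27 (SE 0.70) by the rat and 0.53 (SE 1.23) by the mouse assay for miR-351. They were 0.05 (SE 0.79) and -0.15 (SE 0.78) for miR-224, and 1.0 (SE 1.16) and -0.81 (SE 0.71) for miR-339-3p. None of these passed the unadjusted limit, and their signs were not settled. For miR-1, the mouse assay differed by 4.87 between MDP and TD (SE 1.68, adjusted p = 0.998 by limma; read on 3 MDP and 2 TD arrays) and the rat assay by 1.16 (SE 1.48, adjusted p = 0.998 by limma; read on 4 and 3). With single arrays left out the rat estimate ran from -0.32, without MDP array 6, to 2.04. At the unadjusted limit the mouse assay was called there and the rat assay was not, and the difference between them in that comparison was not tested.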

How the data were processed

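The 12 TLDAs were grouped by their labels into control, TD and MDP (4 each). The members, lists and tests were chosen with earlier results of these data known. Per the study's methods, the authors reverse-transcribed total RNA with a rodent primer pool, used 40 cycles with an automatic threshold. The deposited Ct values are a log2 quantity counted in cycles, with 40 where no threshold was reached. The deposited normalized values, also on the log2 scale, are Ct less the average of 4 U6 wells on that array, which was checked here. A deposited file of fold changes, ratios between groups, holds the authors' own comparisons and was not used, nor were 12 unnamed columns of the Ct table. HTqPCR was not used.

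Wells at 40 were left missing. All 12 arrays and all 375 miRNA assays entered the linear fit of limma 3.58.1 (lmFit, R 4.3.3, tested on simulated data). Its variance step (eBayes) was run for each comparison on the assays tested there, with Benjamini-Hochberg adjustment over the same assays. Exact permutation tests used Python 3.11.15 and scipy 1.17.1, with 100000 resamples for correlations over at least 10 arrays. Named by rule were miR-343, called rat assays, rat assays with a mouse assay of the same number and that assay, the 5 with the earliest mean Ct, the listed clusters, those read on at most 3 arrays, and the 3 assays most like miR-343. MiR-327, miR-336, miR-673, miR-758 and the mouse assays with early wells were named after their values were seen. Sequences and coordinates came from RefSeq (GRCm38.p6), with a mature sequence for 30 of 40 names. Per the study's methods the RNA came from 4 independent cell isolations, and which arrays share one is not stated in the labels. P-values without a block measure the spread between these arrays. Their number limits the precision.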

Additional observations from a re-analysis of the deposited data

Results flagged for a closer look

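Groups of 4 arrays were examined for a single value far from the other 3, and chance marks about 1 in 20 of such groups. Over 33 groups examined that is 1.65. MiR-190b stood apart at Ct 19.3 on TD array 14, where the other TD arrays lay between 33.1 and 34.7, and at 18.6 on MDP array 6, where the other MDP arrays lay between 34.5 and 35.3. MiR-196c was earliest on TD array 5, at 34.0 against 35.1 to 35.3. MiR-224 was earliest on control array 13, at 30.1 against 32.2 to 32.5, and the mouse assay of miR-224 was also earliest there, at 29.2. TD array 14 and MDP array 15, the next label numbers, read the rat assay at 30.4 and 30.3. TD array 11 read 20 rat assays, against 14 to 15 on the other TD arrays. MiR-343 differed by 3.18 on the log2 scale between MDP and TD (adjusted p = 0.501 by limma, exact permutation p = 0.067), which is the difference between both stimulations of the same control.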

How the results depend on the processing

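Calls rested on few arrays. The counts that follow are of rat assays only. The share of all miRNA assays called is given only for the replicate block at the end. The other counts are therefore no result about the rat set. For TD against control the 1 called rat assay became 0 with wells above Ct 35 missing or 3 values required per group, 3 with U6 and snoRNA202 as reference (miR-343, miR-196c and miR-346), 2 with only both groups in the fit (miR-343 and miR-532-5p), 0 without TD array 5 or 14, 3 without TD array 8 and 2 without TD array 11, MDP array 6 or MDP array 15. For MDP against control the count ran from 0 to 1, the 1 being miR-207 without MDP array 9. For MDP against TD it became 0 with wells above Ct 35 missing or 3 values required, 0 without TD array 5 or 14, 3 without TD array 8 and 2 without MDP array 6 or 9. With wells above Ct 35 missing, 4 rat assays instead of 8 were read on all arrays. The rat minus mouse difference of miR-1 was -0.98 with wells kept at 40. Correlations that changed sign were those of miR-1 (-0.66 without the 2 farthest arrays), of miR-339-3p (-0.51 without normalization, -0.10 without the 2 farthest) and of miR-345-3p (0.15 with U6, 0.12 without normalization, 0.054 as group deviations, 0.66 without the 2 farthest). Leaving out single arrays, an alternative chosen after seeing the data, moved the change of the rat minus mouse difference between -2.74 and -0.89 for miR-339-3p after TD (exact p = 0.029 without control array 7), between -0.48 and -0.014 for miR-224 after TD (exact p = 0.029 without TD array 5), and after MDP between -0.41 and 1.76 for miR-1, -0.83 and 0.13 for miR-351, -0.24 and 0.78 for miR-532-5p and -0.29 and 0.084 for miR-224. Both exact p-values of 0.029 are unadjusted, come from many such tests and are the smallest that 3 arrays against 4 allow. With all arrays the adjusted p of these exact permutation tests was 0.75. Of 941 log2 differences of single rat assays under alternatives, 853 kept direction and call, 68 uncalled ones changed sign, 17 became calls and 3 lost one. The groups share no replicate number. After seeing the data, the sets of 3 arrays with consecutive label numbers were tried as a replicate block. Deviations from the group means over 174 miRNAs correlated over 0.1 in 9 of 12 pairs of arrays within a set (-0.12 to 0.83) and in 7 of 36 pairs across sets, so the pairing is a hint from the data. With this block 2 rat assays of 14 were called after TD (miR-343 at -2.46 and miR-532-5p at -2.21), 0 after MDP and 1 between MDP and TD (miR-343 at 3.52), and 0 assays passed adjustment by limma. Over all miRNA assays the block gave 9 calls of 236 after TD, 6 of 243 after MDP and 8 of 238 between MDP and TD. Without the block 4 of 237 were called after TD, so calls rose over the whole array. Within the sets (replicate block) the correlation of both assays was 0.60 for miR-351, 0.55 for miR-224, -0.77 for miR-339-3p (exact p = 0.025, adjusted p = 0.15), 0.48 for miR-345-3p and -0.26 for miR-532-5p.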
